A study of Mus musculus with 10 samples.

Results

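Cholesterol and fatty acids are made by enzymes that cells switch on and off together, and 35 genes of that system were followed in mouse kidney tumours treated with a RIG-I agonist. The genes were taken by symbol from the table of raw counts, where all 35 of the 35 listed symbols had a row among 18603 genes. They comprise 18 enzymes of sterol synthesis (7 of the mevalonate and isoprenoid steps and 11 from squalene to cholesterol), 6 genes of sterol sensing and transport, 5 genes of fatty acid synthesis and desaturation, and 6 genes of the liver X receptor (LXR), cholesterol efflux and oxysterol arm. The system holds further genes that were not analysed here.

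The tumours were grown from RENCA, a kidney cancer cell line of Balb/c mice, placed under the skin of female Balb/c animals. No genetic change was engineered in either group, per the labels. The PBS group (5 mice) received the vehicle alone. The SLR14 group (5 mice) received SLR14, an RNA stem-loop with a 5′ triphosphate that activates the viral RNA sensor RIG-I, carried in lipid nanoparticles, so that the RNA and its lipid carrier cannot be told apart in the contrast. Both groups were injected into the tumour 3 times at intervals of 48 h, starting at a volume of 100 to 150 mm3, and were harvested 24 h after the last injection. Each value is from whole tumour, a mixture of cancer, immune, vascular and connective tissue cells, in which fewer cells of a type and less RNA per cell cannot be told apart. The epithelial keratin Krt8 was present at 1180 to 1655 CPM in the PBS tumours and 1389 to 1759 CPM in the SLR14 tumours, whereas Epcam, another epithelial marker, was low and fell, from 2.10 to 6.11 CPM in the PBS group to 0.178 to 1.359 CPM in the SLR14 group (log2 fold change −2.42, edgeR adjusted p = 0.0324). It was the only one of 6 epithelial markers of the cancer cells that passed, and its part in the results below was not tested.

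Sterol synthesis is governed by the SREBP transcription factors, membrane proteins held in the endoplasmic reticulum by SCAP and INSIG proteins while sterols are plentiful and released to the nucleus when sterols fall. SREBP-2, from Srebf2, mainly drives the sterol enzymes, and SREBP-1, from Srebf1, mainly the fatty acid genes. The opposite arm is run by the LXR receptors, which sense oxysterols and switch on cholesterol export. Interferon responses are known to meet this system at Ch25h, an interferon-inducible gene whose enzyme makes 25-hydroxycholesterol, an oxysterol that restrains SREBP processing.

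Levels are given as CPM, the counts of a gene scaled to a common library total, with TMM factors between tumours. Differences are log2 fold changes of SLR14 against PBS from edgeR's quasi-likelihood test, with their standard error (SE) and a p-value adjusted by Benjamini-Hochberg over all 15883 genes tested. A gene is said to have risen or fallen only at an adjusted p under 0.05. That threshold was passed by 153 genes, or 0.963% of those tested, of which 107 were higher (0.674%) and 46 lower (0.29%). Total counts per tumour ran from 17931895 to 39842608. The SLR14 tumours carried the interferon response in all 5 of 5 genes examined (Irf7, Rsad2, Oasl2, Ifit1 and Ifit3), whose summed level was 57.6 to 81.0 CPM in the PBS tumours and 227 to 427 CPM in the SLR14 tumours.

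The promoters of the genes are shown first, since shared promoter sequence is what the sterol enzymes are known for. RefSeq windows on GRCm38.p6, from 250 bases before to 50 after a transcription start, were found for 28 of the 35 genes (37 windows). Fdps, Fdft1, Sqle, Stard4, Scd1, Scd2 and Abcg1 had no entry. Ch25h is shown as the gene that passed the test, Srebf1 and Hsd17b7 as the other genes whose groups did not overlap, and Hmgcs1 as the enzyme with the sterol regulatory element described below. For Srebf1, the window nearest the gene's 3′ end of its 3 windows is given. All 4 sequences run 5′ to 3′ on the strand of the gene. Capitals mark the motif letters searched, on either strand (CCAAT or its reverse complement ATTGG, the E-box CACGTG, and TCACCCCAC).
Ch25h, chr19:34475099-34475398, minus strand: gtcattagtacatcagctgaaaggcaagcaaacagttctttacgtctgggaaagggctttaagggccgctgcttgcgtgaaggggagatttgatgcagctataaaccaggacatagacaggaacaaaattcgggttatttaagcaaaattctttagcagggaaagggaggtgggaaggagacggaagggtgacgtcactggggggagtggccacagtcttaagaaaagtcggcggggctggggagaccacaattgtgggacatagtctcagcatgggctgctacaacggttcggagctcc
Srebf1, chr11:60210422-60210721, minus strand: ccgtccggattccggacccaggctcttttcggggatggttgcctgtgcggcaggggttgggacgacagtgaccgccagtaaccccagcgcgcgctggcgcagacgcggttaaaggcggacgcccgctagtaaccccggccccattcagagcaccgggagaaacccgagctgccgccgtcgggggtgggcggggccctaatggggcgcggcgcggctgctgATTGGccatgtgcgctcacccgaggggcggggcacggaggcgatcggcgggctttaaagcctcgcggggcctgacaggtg
Hsd17b7, chr1:169969156-169969455, minus strand: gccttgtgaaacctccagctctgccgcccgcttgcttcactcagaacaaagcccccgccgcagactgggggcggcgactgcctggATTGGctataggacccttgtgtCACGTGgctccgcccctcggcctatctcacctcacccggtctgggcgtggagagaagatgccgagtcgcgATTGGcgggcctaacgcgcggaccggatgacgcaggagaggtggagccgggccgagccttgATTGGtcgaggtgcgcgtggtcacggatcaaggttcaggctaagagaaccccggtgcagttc
Hmgcs1, chr13:119690101-119690400, plus strand: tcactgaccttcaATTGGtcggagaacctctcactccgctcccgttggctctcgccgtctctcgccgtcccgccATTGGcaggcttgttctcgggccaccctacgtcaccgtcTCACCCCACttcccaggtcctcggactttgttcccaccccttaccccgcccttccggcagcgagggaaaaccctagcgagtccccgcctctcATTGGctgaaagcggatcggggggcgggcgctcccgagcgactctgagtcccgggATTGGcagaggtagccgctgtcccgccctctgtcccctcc

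The window of Ch25h held none of the 5 motifs searched, which are named here in turn. The CCAAT box, a binding sequence of the factor NF-Y that is known to act beside SREBP, was found on either strand in 14 of 15 sterol enzymes with a window (93.3% of genes, 14 of 18 windows). Among the 27025 genes of the RefSeq table it was found in 41.1% of genes and 37.4% of windows. It was present in 4 of 5 genes of sterol sensing, 2 of 3 fatty acid genes and 1 of 5 genes of the LXR arm (20%, Mylip). The stretches of 29 bases around the box nearest the start are shown for 4 further enzymes, on the strand that reads CCAAT, in capitals. Mvd and Lss had positive differences with unadjusted p under 0.05, Idi1 had the only negative difference of the 18 enzymes, and Cyp51 is the enzyme of the first demethylation.
Mvd, within chr8:122443373-122443672: ccggccagcgggCCAATcatatggcagcg
Lss, within chr10:76531355-76531654: atgcgagctcggCCAATcagagcatcacc
Cyp51, within chr5:4104648-4104947: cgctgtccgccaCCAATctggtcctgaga
Idi1, within chr13:8885356-8885655: gtcggtcgccagCCAATggcaccttggac

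The classical sterol regulatory element, searched as TCACNCCAC on both strands, was found in Hmgcs1 alone, 137 bases before its start, and in 1.44% of all genes of the table. The E-box CACGTG was found in 3 of 15 sterol enzymes and 6 of 28 genes in all (21.4%), against 8.09% of all genes. The core of interferon response elements, searched as GAAA, any 2 bases and GAAA again, was found in Ebp alone (3.99% of all genes), and the LXR element, searched as AGGTCA, any 4 bases and AGGTCA again, in none of the 28 genes (0.0148% of all genes). A match is a run of letters and not a measured binding site.

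Of the 35 genes, 1 rose, Ch25h, 0 fell and 34 did not pass, set against the 0.963% of all genes tested that passed. By DESeq2 2 passed, Ch25h and Srebf1, both higher, where 2.19% of all genes passed and 1.35% were higher, and by limma voom 1, Ch25h. The unadjusted p was under 0.05 for 10 genes, all with a positive difference (Ch25h, Srebf1, Hmgcs1, Hsd17b7, Lss, Scd1, Fdps, Mvd, Scd2 and Scap), where 10.8% of all genes tested had such a p and 5.4% had it with a positive difference. The fitted difference was positive for 32 of 35 genes, against 48% of all genes tested. The exceptions were Idi1, Insig2 and Nr1h3. The median over the 35 genes was 0.20 on the log2 scale and that over all genes tested was −0.01. The 35 genes share regulators and tumours, so that their signs are not independent of each other.

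**Figure D1:**
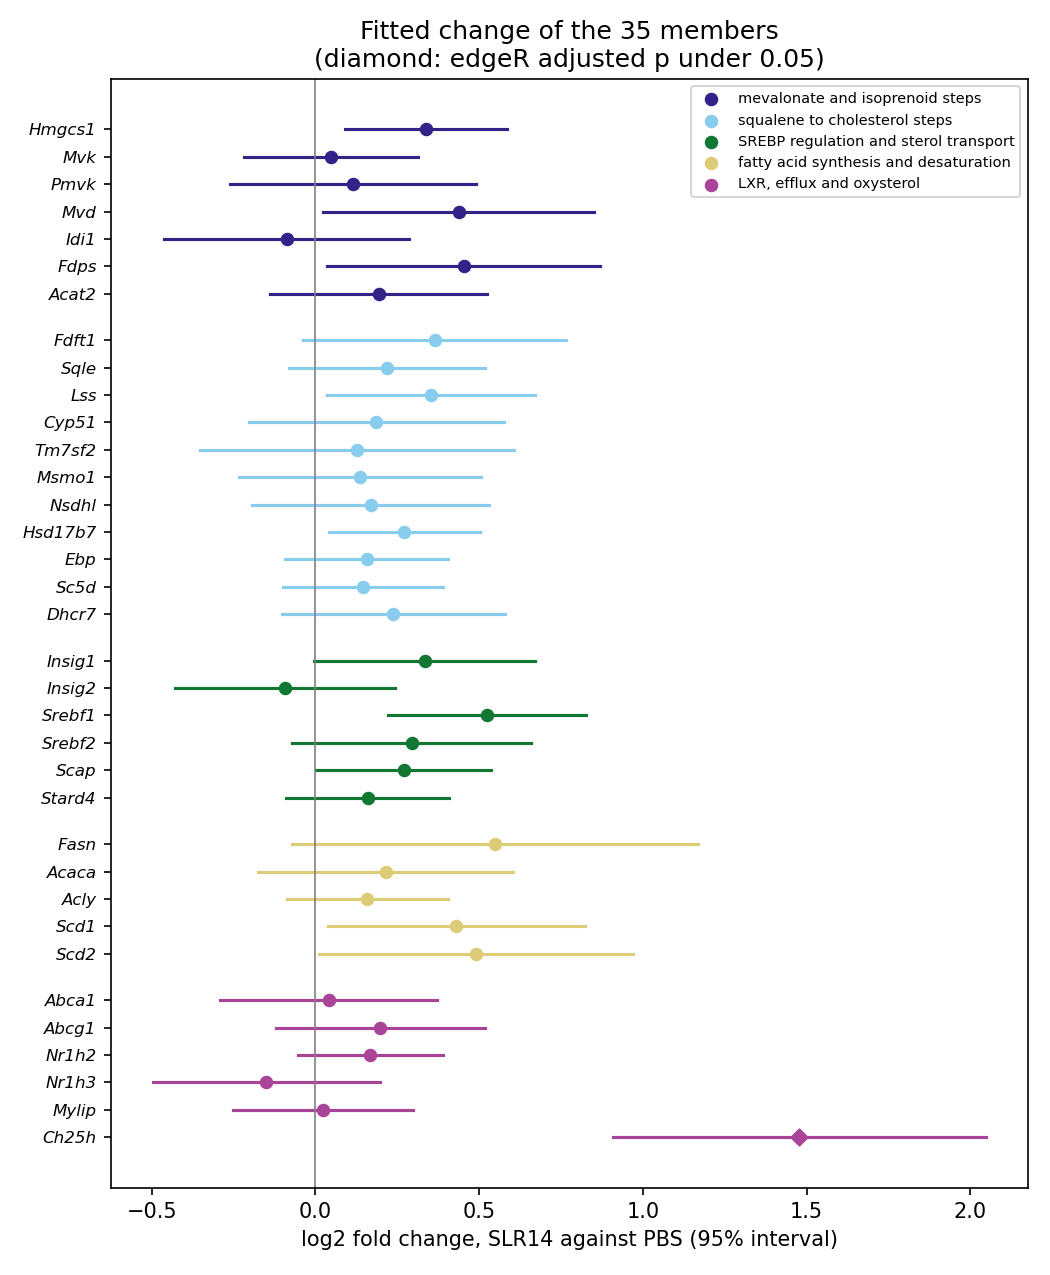
Fitted log2 fold change of SLR14 against PBS for each of the 35 genes with its 95% interval, ordered and coloured by role. Points lie to the right of 0 for 32 genes, and Ch25h at 1.48 carries the single diamond, which marks an edgeR adjusted p under 0.05.

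A single PBS tumour stood apart in a way that touches these genes, found after the values were seen. In PBS 5, short genes were read higher and long genes lower than in the other 4 PBS tumours. Among the 15289 tested genes with an exon length in GENCODE M21, the median log2 difference of PBS 5 from the mean of the others was 0.28 in the shortest of 5 equal groups by length and −0.37 in the longest. In the other 9 tumours, each set against the rest of its group, these medians lay between −0.13 and 0.16. In PBS 5 the medians of the 5 roles did not all follow that order, although each role holds genes of differing length. The mevalonate genes, with a median exon length of 2.68 kb, differed by a median of 0.40 and the fatty acid genes, with 5.46 kb, by −0.72. The genes from squalene to cholesterol, with 4.87 kb, differed by 0.25, whereas all genes of that length group had a median of −0.16. The LXR arm (3.29 kb) differed by −0.15, where all genes of that length group were near 0, and the genes of sterol sensing (5.61 kb) by −0.29. The LXR arm spans 1.39 to 10.4 kb, however. Among PBS tumours, PBS 5 was highest for its shortest genes, Ch25h and Nr1h3, and lowest for its longest, Abca1 and Abcg1. It was also lowest for Nr1h2 (3.35 kb), but not for Mylip (3.23 kb). Of the sensing genes, PBS 5 was highest for the shortest, Insig1 and Insig2, and lowest for the longest, Srebf1, Srebf2 and Scap. Whether the trend with length accounts for the values of PBS 5 was not tested, and differences that moved by over 1.5 times or changed sign without this tumour are given both ways.

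Ch25h, which encodes cholesterol 25-hydroxylase, rose in the SLR14 tumours. It measured 5.37, 8.0, 5.35, 5.99 and 11.6 CPM in PBS tumours 1 to 5 and 26.9, 15.4, 28.7, 16.7 and 13 CPM in the SLR14 tumours 1 to 5, from raw counts of 142 to 1131. The groups did not overlap, although the highest PBS tumour (PBS 5) came close to the lowest SLR14 tumour (SLR14 5). The mean went from 7.26 ± 2.65 to 20.1 ± 7.13 CPM (SD, n = 5), a log2 fold change of 1.48 (SE 0.26, 95% interval 0.91 to 2.05, edgeR adjusted p = 0.0184). Among SLR14 tumours the highest values were in SLR14 1 and SLR14 3, which also had the highest Irf7, a transcription factor of the interferon response, at 280 and 297 CPM against 142 to 156 in the other 3. The call depended on single tumours: it was lost without PBS 1, PBS 3, SLR14 1 or SLR14 3 (edgeR adjusted p 0.0567 to 0.0621, log2 fold change 1.31 to 1.39). It held without PBS 5 (1.70, edgeR adjusted p = 0.00402).

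Macrophages are among the cells known to make Ch25h, and neutrophils enter inflamed tumours, so the markers of both were read beside it. All 7 macrophage markers were tested and 0 passed, with a summed level of 1635 to 2113 CPM in the PBS tumours and 1585 to 2024 CPM in the SLR14 tumours. The 5 neutrophil markers summed to 2.54 to 5.46 CPM in the PBS tumours and 6.26 to 35.8 CPM in the SLR14 tumours, and 3 of them rose. The neutrophil sum was highest in SLR14 2, where Ch25h was at 15.4 CPM, and their part in the result was not tested.

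The other genes of the export arm did not pass. Abca1, the pump that loads cholesterol onto apolipoprotein A-I, measured 144, 122, 104, 104 and 69.2 CPM in the PBS tumours and 101, 115, 120, 109 and 114 CPM in the SLR14 tumours. The SLR14 values all lay inside the PBS range. The log2 fold change was 0.04 (SE 0.15, 95% interval −0.29 to 0.37, edgeR adjusted p = 0.934), and −0.09 without PBS 5. Nr1h3, which encodes LXRα, the receptor of macrophages, liver and fat, measured 33.2, 42.5, 50.7, 40.4 and 69.1 CPM in the PBS tumours and 40.6, 40.5, 41.3, 48.1 and 42 CPM in the SLR14 tumours. PBS 5 was the highest and PBS 1 the lowest of all 10, with the SLR14 tumours between them. Its difference was −0.15 (SE 0.16, edgeR adjusted p = 0.735) and turned to 0.02 without PBS 5. Abcg1, the pump that passes cholesterol to HDL, had 0.20, which came to 0.07 without PBS 5, its low tumour. Nr1h2, the broadly expressed LXRβ, had 0.17, and Mylip, the ligase that marks lipoprotein receptors for destruction, had 0.02, or 0.0025 without PBS 5. The groups overlapped for these 3 genes. The median of the 6 genes was 0.10, with 0.05 without PBS 5 and 0.16 without PBS 1 or PBS 4. The ratio of Nr1h3 to Nr1h2 within a tumour was −1.02 ± 0.48 in the PBS tumours and −1.29 ± 0.17 in the SLR14 tumours on the log2 scale (SD, n = 5, two-sided exact permutation p = 0.317, adjusted over 4 ratios 0.349). The difference of −0.27 came to −0.08 without PBS 5.

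Of the 6 genes that sense and move sterols, 0 passed in edgeR and Srebf1 passed in DESeq2. Srebf1 measured 207, 205, 165, 235 and 150 CPM in the PBS tumours and 257, 245, 259, 267 and 355 CPM in the SLR14 tumours. Every SLR14 tumour lay above every PBS tumour, with SLR14 5 far above the other SLR14 tumours. The difference was 0.52 (SE 0.14, 95% interval 0.22 to 0.83, edgeR adjusted p = 0.129), 0.53 in DESeq2 (adjusted p = 0.029), and 0.44 in edgeR without PBS 5. Groups without overlap and higher in SLR14 were seen for 3 of the 35 genes (Ch25h, Srebf1 and Hsd17b7), where 1.92% of all genes tested were so and 3.24% did not overlap in either direction.

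Srebf2, the most abundant sensor gene, measured 647, 663, 660, 734 and 384 CPM in the PBS tumours and 656, 700, 639, 821 and 969 CPM in the SLR14 tumours. The groups overlapped, and PBS 5 was the lowest of all tumours. The difference of 0.29 (SE 0.17, edgeR adjusted p = 0.561) came to 0.16 without PBS 5. The log2 ratio of Srebf1 to Srebf2 was −1.66 ± 0.23 in the PBS tumours and −1.44 ± 0.13 in the SLR14 tumours (SD, n = 5, two-sided exact permutation p = 0.0794, adjusted over 4 ratios 0.159).

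Scap, the escort of SREBP out of the endoplasmic reticulum, measured 114, 115, 116, 125 and 79.1 CPM in the PBS tumours and 137, 120, 135, 117 and 152 CPM in the SLR14 tumours. SLR14 2 and 4 fell inside the PBS range and PBS 5 was the lowest. The difference was 0.27 (SE 0.12, edgeR adjusted p = 0.459), and 0.17 without PBS 5. Insig1, which holds back SCAP and is itself a known SREBP target, measured 130, 123, 105, 113 and 174 CPM in the PBS tumours and 131, 171, 130, 204 and 176 CPM in the SLR14 tumours. Only SLR14 4 and SLR14 5 lay above all PBS tumours, of which PBS 5 was the highest. The difference was 0.33 (SE 0.16, edgeR adjusted p = 0.466), and 0.46 without PBS 5.

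Insig2, the form less tied to SREBP, had a difference of −0.09 (95% interval −0.43 to 0.24), or −0.01 without PBS 5, and Stard4, a carrier of cholesterol between membranes, had 0.16. The log2 ratio of Insig1 to Insig2 was 1.00 ± 0.21 in the PBS tumours and 1.41 ± 0.37 in the SLR14 tumours, a difference of 0.41 that did not pass (SD, n = 5, two-sided exact permutation p = 0.0714, adjusted over 4 ratios 0.159). With 5 against 5 tumours the smallest p this test can give is 0.00794. The median of the 6 sensor genes was 0.28, and 0.16 without PBS 5.

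**Figure D2:**
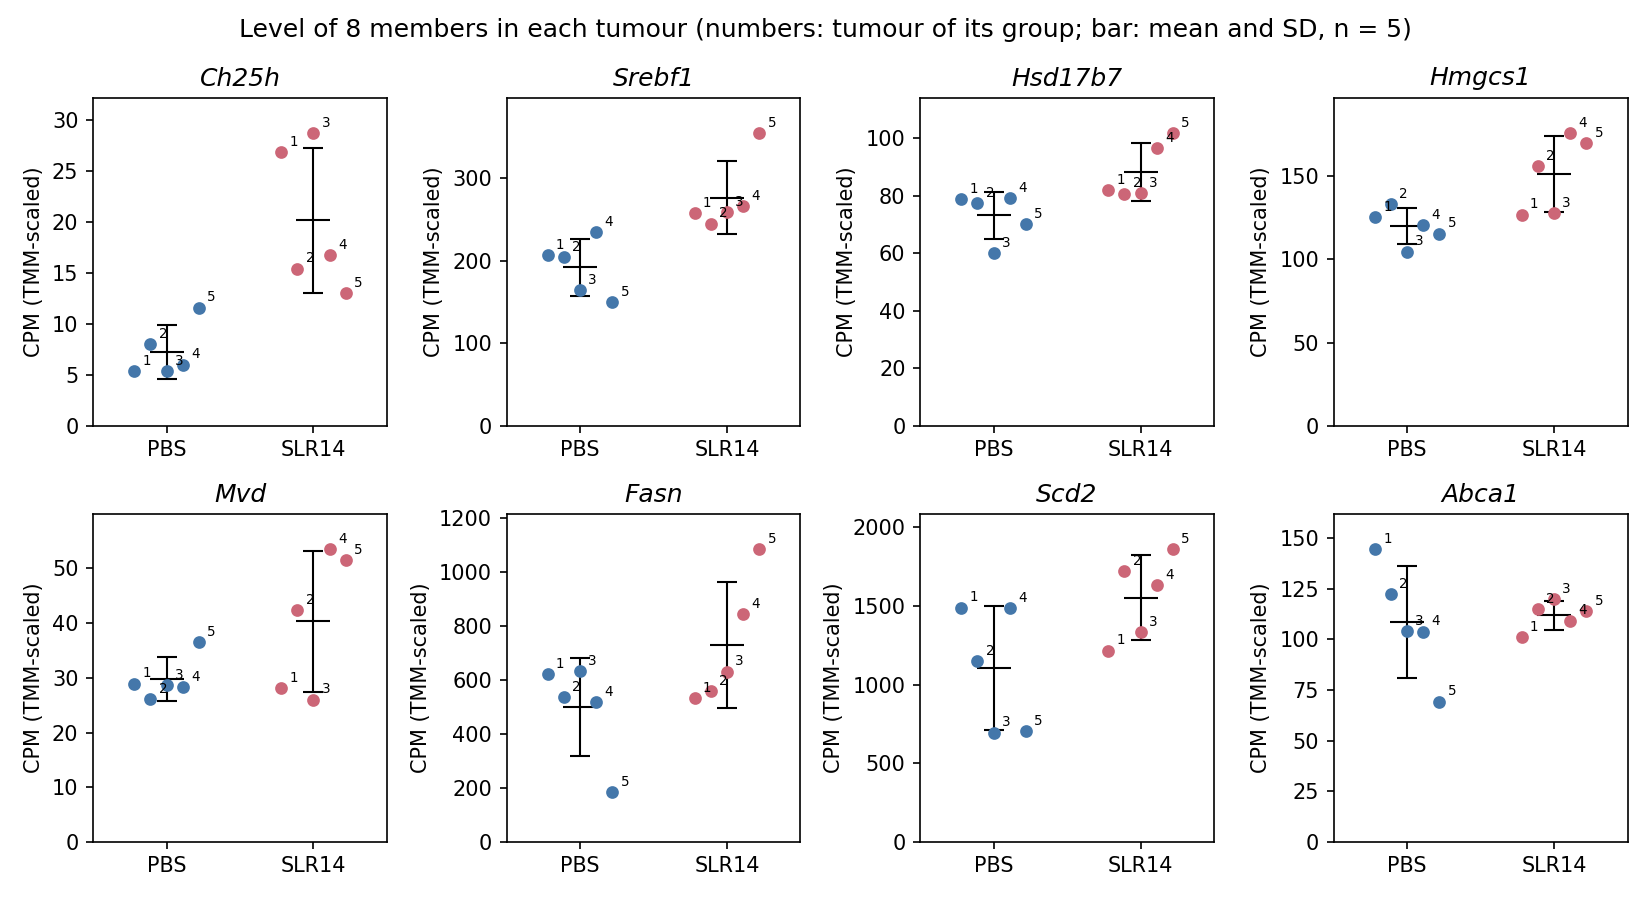
CPM of 8 of the genes in each tumour, PBS in blue and SLR14 in red, with the tumour's number beside each point and bars for the mean and SD of 5. Ch25h, Srebf1 and Hsd17b7 show groups that do not overlap, and PBS 5 lies lowest of all 10 tumours for Srebf1, Fasn and Abca1 and highest of the PBS tumours for Ch25h and Mvd.

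Among the 18 enzymes of sterol synthesis 0 passed, 17 had a positive difference, and 5 had an unadjusted p under 0.05 (Hmgcs1, Hsd17b7, Lss, Fdps and Mvd). Their median was 0.19. Leaving out 1 tumour, it ranged from 0.12 without SLR14 5 and 0.13 without SLR14 4 to 0.28 without SLR14 3, and was 0.25 without PBS 5. Hmgcs1, which makes the HMG-CoA that feeds the pathway, measured 125, 133, 105, 120 and 116 CPM in the PBS tumours and 127, 156, 128, 176 and 170 CPM in the SLR14 tumours. SLR14 2, 4 and 5 lay above all PBS tumours, and SLR14 1 and 3 within their range. The difference was 0.34 (SE 0.11, 95% interval 0.09 to 0.58, edgeR adjusted p = 0.283). Mvd, the decarboxylase that closes the mevalonate steps, measured 29, 26.2, 28.7, 28.3 and 36.6 CPM in the PBS tumours and 28.1, 42.4, 26, 53.5 and 51.5 CPM in the SLR14 tumours. SLR14 3 was the lowest of all 10 tumours and SLR14 4 the highest. The difference was 0.44 (SE 0.19, edgeR adjusted p = 0.436).

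Fdps, which makes farnesyl diphosphate, measured 16.7, 14, 12.1, 16.1 and 16.9 CPM in the PBS tumours and 15.6, 21.9, 13, 26 and 27.6 CPM in the SLR14 tumours. SLR14 1 and 3 again lay inside the PBS range. The difference was 0.45 (SE 0.19, edgeR adjusted p = 0.427). Fdps has near-identical processed copies elsewhere in the genome, so its count is uncertain where the counting of shared reads is not given. The other mevalonate genes were Acat2 at 0.19 (acetoacetyl-CoA thiolase), Pmvk at 0.12 and Mvk at 0.05 (the mevalonate kinases), and Idi1 at −0.09 (the isopentenyl diphosphate isomerase). Without PBS 5, Acat2 came to 0.30, Pmvk to 0.22 and Mvk to 0.13. Idi1 turned to 0.06 without PBS 5, where it measured 44.3 CPM and the other 4 lay at 25.2 to 31.2 CPM. The median of the 7 mevalonate genes was 0.19, with 0.30 without PBS 5, 0.13 without PBS 3 and 0.12 without SLR14 4.

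All 11 genes from squalene to cholesterol had positive differences, of 0.13 to 0.36, with a median of 0.19, which was 0.25 without PBS 5 and fell to 0.11 without SLR14 5. Sqle, squalene epoxidase, a known control point, was the enzyme with the highest level per kilobase and measured 316, 327, 260, 336 and 299 CPM in the PBS tumours and 281, 392, 278, 413 and 427 CPM in the SLR14 tumours. SLR14 1 and 3 lay among the lower PBS values and the other 3 above all PBS tumours. The difference was 0.22 (SE 0.14, 95% interval −0.08 to 0.52, edgeR adjusted p = 0.589). Lss, which closes squalene epoxide into the sterol rings, measured 87.2, 73.5, 74.2, 79.6 and 65.1 CPM in the PBS tumours and 71.2, 102, 76.5, 116 and 119 CPM in the SLR14 tumours. The split was the same as for Sqle, SLR14 2, 4 and 5 above and SLR14 1 and 3 within the PBS range. The difference was 0.35 (SE 0.15, edgeR adjusted p = 0.415).

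Hsd17b7, a 3-ketosteroid reductase of the demethylation steps, measured 78.9, 77.6, 60.1, 79.1 and 70.2 CPM in the PBS tumours and 81.9, 80.7, 80.8, 96.5 and 102 CPM in the SLR14 tumours. Every SLR14 tumour was above every PBS tumour, the lowest SLR14 value (80.7) lying just above the highest PBS value (79.1). The difference was 0.27 (SE 0.11, edgeR adjusted p = 0.371). The remaining differences were 0.36 for Fdft1 (squalene synthase), 0.24 for Dhcr7 (the reductase of the last step to cholesterol), 0.19 for Cyp51, 0.17 for Nsdhl and 0.14 for Msmo1 (both of the removal of methyl groups), 0.16 for Ebp (the sterol isomerase), 0.15 for Sc5d (a desaturase) and 0.13 for Tm7sf2 (a sterol reductase). The groups overlapped for all 8. Without PBS 5, Cyp51 came to 0.31, Tm7sf2 to 0.33 and Msmo1 to 0.25.

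Within the SLR14 group many sterol enzymes had a like order of tumours, a pattern noticed after the values were seen and given as a description. The 18 enzymes summed to 1242, 1253, 1086, 1238 and 1380 CPM in PBS tumours 1 to 5 and to 1164, 1489, 1127, 1721 and 1754 CPM in SLR14 tumours 1 to 5. SLR14 1 and 3 thus lay within the PBS range, and SLR14 2, 4 and 5 above it. SLR14 1 and SLR14 3 were the lowest pair of their group for 14 of 18 enzymes (77.8%), and for 15.1% of all genes tested. SLR14 2 and SLR14 3 were the lowest pair for the other 4. The highest SLR14 value was in SLR14 5 for 11 enzymes and in SLR14 4 for 7. The split was not particular to the sterol enzymes. In SLR14 tumours 1 to 5 the fatty acid genes summed to 2408, 3022, 2660, 3289 and 3934 CPM (PBS tumours 1341 to 2855). The genes of sterol sensing summed to 1333, 1410, 1319, 1557 and 1805 CPM (PBS tumours 945 to 1378). SLR14 1 and 3 were the lowest pair for 3 of 5 fatty acid genes (60%). They were so for 2 of 6 genes of sterol sensing and 2 of 6 of the LXR arm (33.3% each).

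SLR14 1 and 3 were also the tumours with the highest Ch25h, at 26.9 and 28.7 CPM against 13 to 16.7 in the other 3. Their summed interferon response was 409 and 427 CPM against 227 to 239 CPM. The PBS group did not show this order, since PBS 5 had both the highest Ch25h (11.6 CPM) and the highest sterol sum. PBS 5 is the tumour in which short genes were read higher, and Ch25h is short (1.39 kb). Whether that trend bears on these values was not tested. Among the other PBS tumours, PBS 2 was the highest for both (8.0 CPM for Ch25h and a sterol sum of 1253 CPM). The proliferation markers, of which 0 of 5 passed, summed to 1879 and 2018 CPM in SLR14 1 and 3 and to 1753, 1818 and 1987 CPM in SLR14 2, 4 and 5, so that the 2 sets of tumours overlapped. No relation between these values was tested within 5 tumours.

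**Figure D3:**
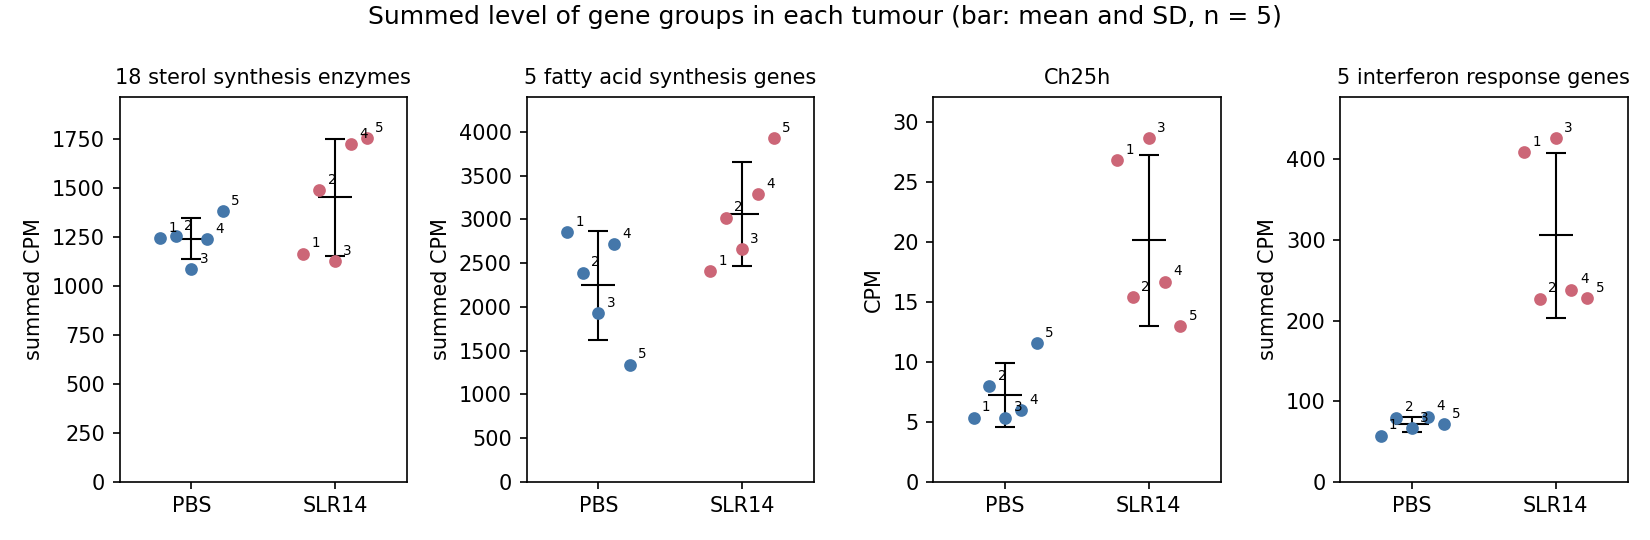
Summed CPM in each tumour of the 18 sterol enzymes, the 5 fatty acid genes, Ch25h alone and the 5 interferon response genes, with the tumour's number beside each point and bars for the mean and SD of 5. SLR14 1 and 3 are lowest of the SLR14 tumours for the sterol enzymes (1164 and 1127 CPM) and highest for Ch25h and the interferon response genes.

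The 5 genes that make and desaturate fatty acids had the largest median difference of the 5 roles, 0.43, and 0.33 without PBS 5, and 0 passed. Fasn, fatty acid synthase, measured 622, 535, 633, 518 and 186 CPM in the PBS tumours and 532, 558, 631, 844 and 1084 CPM in the SLR14 tumours. PBS 5 lay far below the rest, SLR14 4 and 5 above all PBS tumours, and the other 7 between 518 and 633. The difference of 0.55 (SE 0.29, 95% interval −0.07 to 1.17, edgeR adjusted p = 0.516) came to 0.33 without PBS 5. Scd1, a stearoyl-CoA desaturase, measured 272, 271, 180, 292 and 175 CPM in the PBS tumours and 253, 309, 264, 338 and 440 CPM in the SLR14 tumours. PBS 3 and PBS 5 were low. SLR14 2, 4 and 5 lay above all PBS tumours, with SLR14 5 the highest, and SLR14 1 and 3 lay within the PBS range. The difference was 0.43 (SE 0.18, edgeR adjusted p = 0.422), and 0.33 without PBS 5.

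Scd2, the desaturase form known from brain and developing tissue, measured 1490, 1151, 695, 1486 and 702 CPM in the PBS tumours and 1216, 1723, 1334, 1631 and 1860 CPM in the SLR14 tumours. PBS 3 and PBS 5 were again the low tumours. The difference was 0.49 (SE 0.22, edgeR adjusted p = 0.448), and 0.36 without PBS 5. Acaca, acetyl-CoA carboxylase, had 0.21 and Acly, which makes cytosolic acetyl-CoA from citrate, 0.16, and both came to 0.07 without PBS 5. SLR14 5 was the highest SLR14 tumour for 5 of 5 fatty acid genes, where it was so for 22.5% of all genes tested, and PBS 5 the lowest PBS tumour for 4 of 5 (34% of all genes). The log2 ratio of Scd1 to Scd2 was −2.16 ± 0.22 in the PBS tumours and −2.28 ± 0.14 in the SLR14 tumours (SD, n = 5, two-sided exact permutation p = 0.349, adjusted over 4 ratios 0.349). The difference of −0.12 came to −0.08 without PBS 5.

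Fat and skin glands make fatty acids in a subcutaneous site, and their markers were read beside these genes. Of 10 adipocyte markers, Adipoq, Plin1, Lep and Retn had no row in the counts used here, Cidec and Cfd were below 0.4 CPM in every tumour, and 0 of the 4 tested (Pck1, Fabp4, Lipe and Pnpla2) passed. The summed level of the markers with a row, 70.0 to 92.3 CPM in the PBS tumours and 74.6 to 97.3 CPM in the SLR14 tumours, overlapped. Most of it was Pnpla2, at 51.7 to 74.3 CPM in the PBS tumours and 56.4 to 77.7 CPM in the SLR14 tumours. Pck1 was below 1 CPM in every tumour. Lipe measured 12.7 to 16.4 CPM in the PBS tumours and 14.6 to 21.0 CPM in the SLR14 tumours. Fabp4 measured 1.08 to 4.30 CPM in the PBS tumours and 3.02 to 6.18 CPM in the SLR14 tumours. With Adipoq, Plin1, Lep and Retn absent and Cidec, Cfd and Pck1 barely detected, neither this sum nor the correlations below can decide how much fat a tumour held. Over the 10 tumours, the mean log2(CPM + 1) of the 4 tested markers had a Pearson r of 0.323 with Fasn (permutation p = 0.338) and of 0.558 with Scd1 (permutation p = 0.0908, adjusted over 5 genes 0.447). Spearman's rho was 0.139 for Fasn (permutation p = 0.707) and 0.442 for Scd1 (permutation p = 0.204). Without PBS 1 and SLR14 5, the tumours farthest from the median of the markers, r was 0.0796 for Fasn and 0.401 for Scd1. For Acaca, Acly and Scd2 r was 0.173, 0.306 and 0.351 and rho −0.0182, 0.297 and 0.455, with permutation p of at least 0.193. Without PBS 5, r was 0.734 for Fasn, 0.7125 for Scd1, 0.699 for Acly, 0.483 for Scd2 and 0.42 for Acaca. The permutation p adjusted over 5 genes was then 0.0646 for Fasn, Scd1 and Acly, 0.24 for Scd2 and 0.259 for Acaca. Without SLR14 5, r was −0.05 for Fasn, −0.05 for Acly and −0.31 for Acaca. Whichever tumour was left out, r was at least 0.204 for Scd1 and 0.114 for Scd2. The groups are pooled in r, and the marker mean was 2.89 to 3.18 in the PBS tumours and 3.12 to 3.46 in the SLR14 tumours. Any difference between the groups can therefore enter r. The skin and sebaceous markers summed to 71.2 to 138 CPM in the PBS tumours and 72.0 to 195 CPM in the SLR14 tumours, and 0 of the 2 tested passed. The largest part of the sum in every tumour was Mgst1, at 69.2 to 110 CPM in the PBS tumours and 68.8 to 93.7 CPM in the SLR14 tumours. The sum therefore cannot decide how much skin a tumour held. The highest sum of these markers was in SLR14 5, the tumour highest in the fatty acid genes, where the epidermal keratin Krt14 measured 62.3 CPM. In the other tumours Krt14 was below 1 CPM, except for 17.6 CPM in PBS 4. Krt10, a further marker of the list, measured 33.9 CPM in SLR14 5 and 30.8 CPM in PBS 4, and was below 1 CPM elsewhere. The fatty acid genes of PBS 4 summed to 2715 CPM, below the highest PBS sum of 2855 CPM. Krt5 and Awat1 had no row in the counts used here, and the part of skin in the result was not tested.

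**Figure D4:**
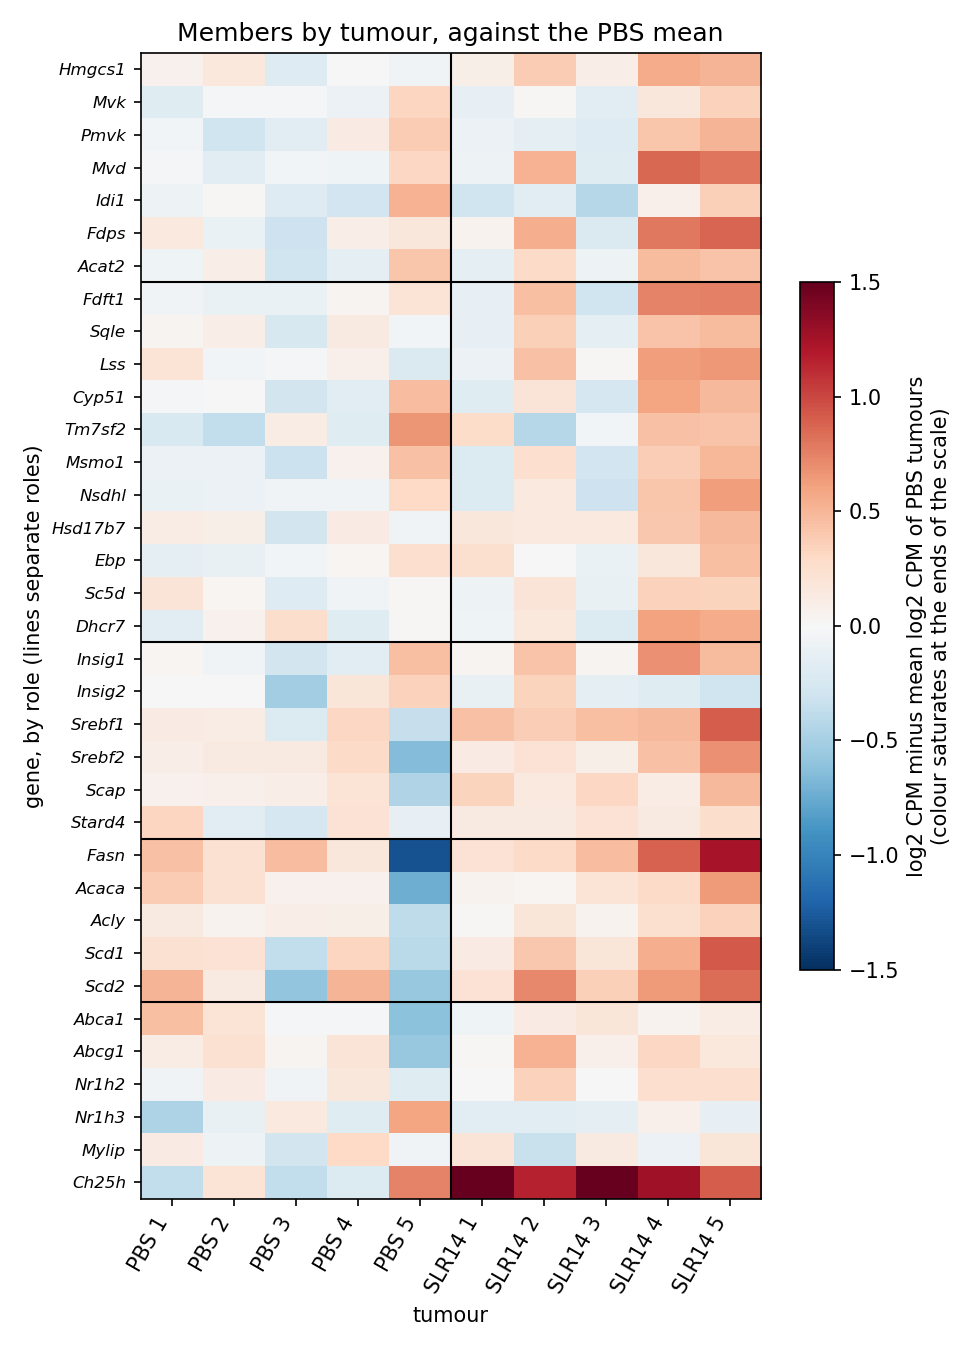
log2 CPM of each gene in each tumour minus its mean log2 CPM in the 5 PBS tumours, with genes in rows by role and tumours in columns, red for higher and blue for lower. SLR14 4 and 5 are red across the sterol enzymes while SLR14 1 and 3 are pale or blue, and PBS 5 is blue for the fatty acid genes and Srebf2.

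Levels were set against each other per kilobase of exon, since long genes gather more counts. The length is the union of all exons annotated for a gene and can exceed that of the transcript expressed. The level per kilobase can therefore be too low for some genes, and the order is approximate. In the PBS tumours the highest level was that of Scd2, 202 ± 72.3 CPM per kilobase (SD, n = 5). Srebf2 followed at 86.0 ± 18.8 and Sqle at 55.5 ± 5.37 CPM per kilobase. Scd1, Fasn, Acly and Insig1 came next, from 48.6 down to 41.7 CPM per kilobase, and did not differ beyond their SDs of 6.10 to 16.7. Ch25h was 32nd of the 35 genes at 5.23 ± 1.91 CPM per kilobase. Abcg1 at 3.18 and Tm7sf2 at 1.18 CPM per kilobase were the last.

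**Figure D5:**
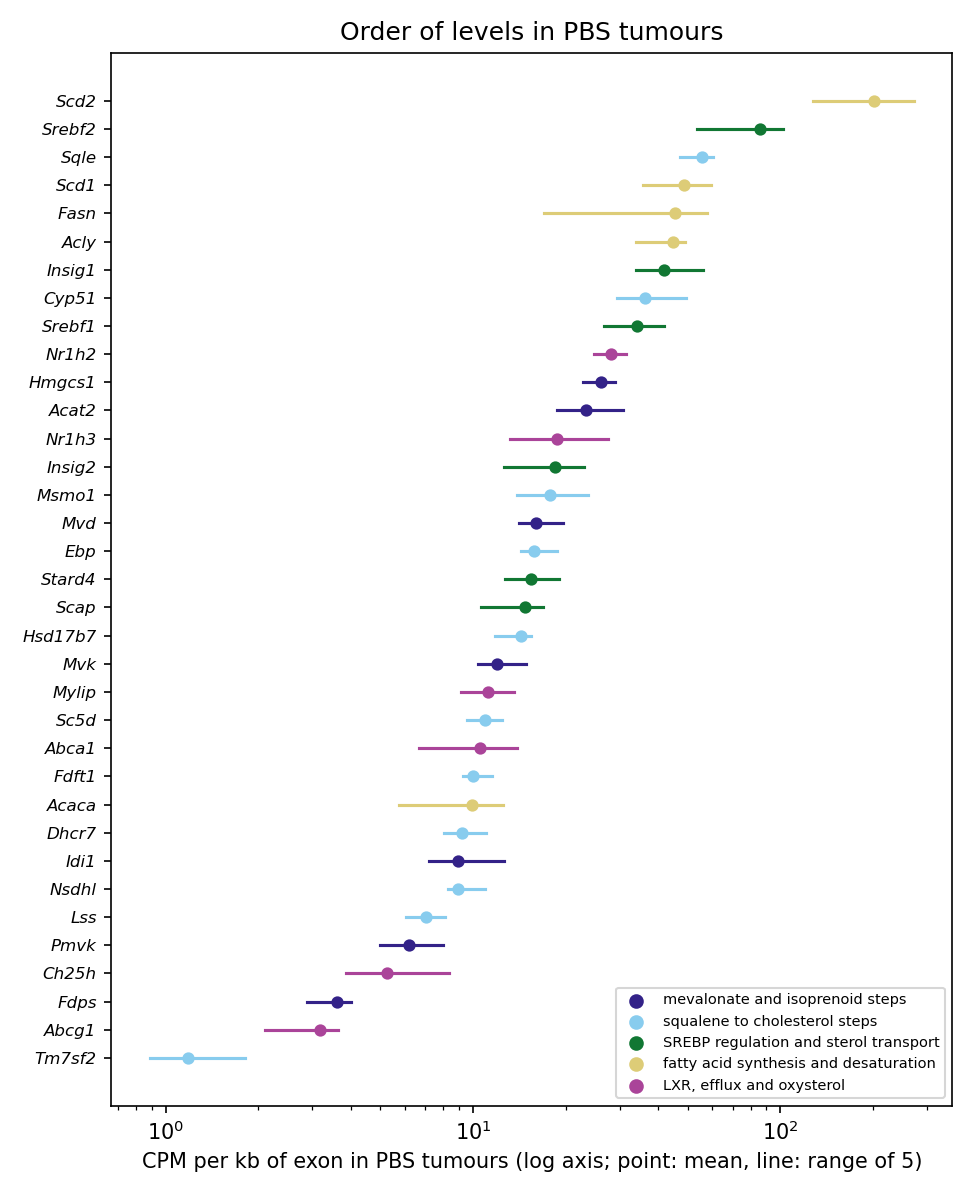
Level of each gene in the PBS tumours in CPM per kilobase of exon on a log axis, with the mean as a point and the range of 5 tumours as a line, coloured by role. Scd2 stands at the top with 202 CPM per kilobase and Tm7sf2 at the bottom with 1.18, and most neighbours in the order overlap in range.

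A list of 36 further genes of lipid metabolism held acyl-CoA synthetases, elongases, fatty acid desaturases, the proteases that cut SREBP, and genes of sterol esterification and transport. Of these, 35 were tested (Cyp7b1 was too low), 0 passed, 21 had a positive difference (60%) and the median was 0.08, against 0.20 for the 35 genes described above and −0.01 for all genes. The unadjusted p was under 0.05 for 4 of them (11.4%), near the 10.8% of all genes tested. The 5 with the smallest p were Fads2, the delta-6 desaturase, at 0.32, Lpcat3, which builds polyunsaturated phospholipids and is a known LXR target, at 0.32, Aacs, which activates ketone bodies for lipid synthesis, at 0.40, Mbtps2, the site-2 protease that frees SREBP from the membrane, at −0.19, and Rnf145, a sterol-responsive ligase, at 0.29. Their edgeR adjusted p ran from 0.319 to 0.482. Mbtps2 measured 41.7 ± 0.481 CPM in the PBS tumours and 36.5 ± 3.14 CPM in the SLR14 tumours (SD, n = 5), and its groups did not overlap. Those of Fads2 and Lpcat3 did not overlap either, with the SLR14 tumours higher, where 3.24% of all genes tested did not overlap.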

How the data were processed

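Gene expression was measured by bulk RNA sequencing in 5 PBS and 5 SLR14 tumours. Per the labels' protocols, ribosomal RNA was depleted and messenger RNA enriched with oligo(dT) beads before libraries were made with random primers. The submitters' processing notes name the mm39 build, STAR, Trim Galore 0.6.7 and DESeq2 1.36.0. How reads were counted, with which annotation and whether by strand, is not given in the sources used here. Overlapping and antisense genes therefore cannot be told apart. The authors deposited raw counts per gene (18603 genes), used for every main test. They also deposited a normalized signal (each tumour's counts over a single factor), used for 1 alternative. Of the genes, 74 have no symbol (0.0295% of counts) and were kept.

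Counts were filtered with filterByExpr (minimum count 10), which kept 15883 genes, TMM-scaled and tested with edgeR 4.0.16 (glmQLFit and glmQLFTest, R 4.3.3) without covariates at a Benjamini-Hochberg adjusted p of 0.05. The common biological coefficient of variation was 0.190. An SE is the absolute log2 fold change over the square root of F. DESeq2 1.42.0, limma 3.58.1 (voom, and on the authors' normalized values), other size factors, other filters, a replicate block and leaving out tumours were alternatives. Where a tumour was left out of a fit, n was 4 in its group. Ratios are of log2(CPM + 1), with an exact two-sided permutation test (252 assignments of tumours to groups). Correlations used 100000 resamples (SciPy 1.17.1), or all orders of the tumours where 1 was left out. On simulated counts for the comparison of SLR14 with PBS (15992 genes tested), edgeR recovered 90 of 100 genes changed by 1 on the log2 scale and 99 of 100 changed by 2, with 7 false calls. Every simulated gene had the common dispersion and no trend with length was added, so recovery among real genes can be lower.

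The design states 5 mice per group, and no 2 tumours of a group were alike within counting noise (20 pairs, chi-square divided by its degrees of freedom 8.29 to 148). All 35 genes are named. Values in every tumour are given for those with an unadjusted p under 0.05, with groups that do not overlap, or on a set list of 11 genes. The genes, roles and lists were chosen with earlier results of these data known. Exon lengths are from GENCODE M21 and promoters from RefSeq, both on GRCm38 and not on mm39, and were joined by gene identifier or symbol.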

Additional observations from a re-analysis of the deposited data

Results flagged for a closer look

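In 11 of 78 sets of 5 tumours (35 genes and 4 ratios in each group), 1 tumour lay far from the other 4 by Dixon's ratio, where chance gives about 1 in 20, or 3.9. Of the 11, 8 are PBS 5. Over all genes tested, PBS 5 was the lowest PBS tumour for 34% and the highest for 34.7%. The share of all genes flagged by Dixon's ratio was not computed, so the flags cannot be read as particular to the 35 genes. PBS 5 was high for 3 sterol enzymes: Mvk at 39.7 CPM (other PBS tumours 27.8 to 31.3), Mvd at 36.6 CPM (26.2 to 29.0) and Nsdhl at 31.3 CPM (23.7 to 24.5). PBS 5 was low for 5 genes: Srebf2 at 384 CPM (647 to 734), Scap at 79.1 CPM (114 to 125), Fasn at 186 CPM (518 to 633), Acly at 179 CPM (244 to 258) and Abcg1 at 15.3 CPM (23.4 to 26.6). The other 3 are in the SLR14 group: Insig2 at 79.7 CPM in SLR14 2 (51.0 to 58.4), Srebf1 at 355 CPM in SLR14 5 (245 to 267) and Nr1h3 at 48.1 CPM in SLR14 4 (40.5 to 42.0).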

How the results depend on the processing

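Of 665 values of single genes under 19 alternatives, 646 kept their direction and their side of the threshold. By DESeq2, 407 of all genes passed (251 higher, 156 lower), and 2 of the 35 genes, 1 of them (Srebf1, adjusted p = 0.029) among the genes of sterol sensing. With a replicate block in edgeR, 78 genes passed (51 higher, 27 lower) and 0 of the 35, with Ch25h at 1.47 (adjusted p = 0.0945). Whether same-numbered tumours were paired is not given in the sources used here. Their deviations correlated at −0.25 to 0.14, which cannot decide it, since tumours handled together need not be alike in expression. The paired sign-flip p of the 4 ratios was 0.125 to 0.375 (smallest possible 0.0625). Leaving out 1 tumour gave 69 (without PBS 1) to 194 calls, 44 to 123 higher and 25 to 71 lower, and over 1.5 times fewer than in the full set also when PBS 3 (78), SLR14 1 (77), SLR14 3 (75) or SLR14 4 (89) was left out. Of the 35 genes 0 to 1 passed, and of the LXR arm 0 to 1, with 30 to 33 positive. Without PBS 5 and SLR14 2 together, 74 genes were lower and Ch25h was at 1.78 (adjusted p = 0.00299).

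Directions turned for 6 genes, none of them past the threshold. Mylip was −0.0084 with upper-quartile factors and −0.0379 to 0.104 leaving out 1 tumour. Leaving out 1 tumour, Idi1 ranged from −0.217 to 0.0631, Abca1 from −0.0912 to 0.164, Nr1h3 from −0.252 to 0.0225 and Mvk from −0.0323 to 0.134. Without PBS 5 and SLR14 2, Idi1 was 0.0826, Abca1 −0.102, Nr1h3 0.0362 and Abcg1 −0.0066. The adipocyte r of Acaca, Acly and Scd2 was −0.0473, −0.0026 and −0.0777 with a pseudocount of 0.1, and −0.0523, −0.0416 and −0.133 on the authors' normalized values. Leaving out 1 tumour, r ranged from −0.0513 to 0.734 for Fasn, −0.312 to 0.42 for Acaca and −0.0516 to 0.699 for Acly, lowest without SLR14 5. The r of Fasn, Acaca and Acly was highest without PBS 5, as was that of Scd1, which ranged from 0.204 to 0.7125. The cause of these changes was not tested. The simulated counts held no differences below 1 on the log2 scale, a size that all of the 35 genes but Ch25h had.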
